A study of Mus musculus with 44 samples.

Results

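Of the 14699 genes listed in the table, 10 genes of chromosome 7 are described here: Hddc3, Crtc3, Kctd14, Myo7a, Slco2b1, Art2b, Trim34a, Trim12a, Trim34b and Trim30d. They were chosen by symbol, with their levels in these libraries known, as genes of a stretch of about 28 Mb, starting near 80 Mb, that stood apart in the libraries of mice lacking BMAL1 in dendritic cells (DCs), and because they lie on the chromosome that carries the floxed gene, Arntl. Their starts lie 8.71 to 32.8 Mb before the start of Arntl (GRCm38.p6). All 10 passed the filter for testing (at least 1 CPM, counts scaled by library size, in at least 5 of the 44 libraries). Trim34b passed it only through the 12 KO libraries, so its presence among the genes tested already reflects that group.

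Each library holds RNA of CD45+CD11c+MHCIIhigh cells sorted from the inguinal lymph nodes of 1 female mouse aged 8 to 12 weeks, 24 h after injection at ZT3, ZT9, ZT15 or ZT21 (zeitgeber time, hours after lights on). The WT group (20 libraries, 5 per timepoint) and the KO group (12 libraries, 3 per timepoint) received B16-F10-OVA cells, a mouse melanoma line that expresses ovalbumin. The PBS group (12 libraries, 3 per timepoint) consists of control mice that received PBS in place of tumour cells (sham). KO mice carried the Clec9a-cre transgene on 1 allele and the floxed Bmal1 (Arntl) on both. Clec9a-cre is active in conventional DCs and their precursors, so that other sorted cells would keep the gene, which was not measured here. The labels call the controls WT and name neither their strain nor whether they were littermates or carried the cre or the floxed allele. In these groups, the loss of BMAL1, the presence of the cre and the DNA inherited together with the floxed allele therefore cannot be told apart.

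Floxed alleles are often made in embryonic stem cells of one mouse strain and then crossed to another. A stretch of the original chromosome around the altered gene is inherited with it, and its length depends on how often recombination has cut it. The TRIM genes among the members encode ubiquitin ligases of the TRIM5 and TRIM30 groups, and many genes of these groups are induced by interferon and active against viruses. BMAL1 is the transcription factor that pairs with CLOCK at E-boxes (CACGTG) to drive the circadian clock.

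The libraries hold 20088012 to 28962671 reads on genes in WT, 29406729 to 55799163 in KO and 28003328 to 49590055 in PBS mice, so that 1 read is worth 0.0179 to 0.0498 CPM. Every WT library thus held fewer reads than any KO library. How the groups were divided among experiments and lanes is not given in the sources used here. Such a division cannot be told apart from genotype or tumour cells. Arntl was not lower in the KO libraries. It ranged from 8.67 to 24.4 CPM in WT (median 14.8), from 11.5 to 38.0 in KO (median 18.0) and from 12.3 to 34.8 in PBS (median 21.9). The values are per gene and not per exon, so the deleted part of Arntl could not be read, and KO stands below for the libraries labelled so. The sorted cells carried the markers of migratory DCs, with Ccr7 between 3934 and 6822 CPM in all 44 libraries. Markers of other cells and of DC subsets differed between the groups. The summed level of 10 monocyte and macrophage genes had a median of 697 CPM in WT (419 to 1112), 1657 in KO (884 to 3325) and 2481 in PBS (1819 to 3316), and none of these genes was at 0 in a whole group. By limma (adjusted p under 0.05), 9 of these 10 genes were higher in KO than in WT, where 23.5% of all genes were. So were 6 of 8 NK cell, 4 of 6 type 2 conventional DC, 3 of 5 plasmacytoid DC and 2 of 2 Langerhans cell genes. None of the genes on these lists was lower. Of 7 type 1 conventional DC genes, 2 were higher and 1 lower. The part of these differences in the results below was not tested.

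The TRIM genes are shown first by sequence, because the levels in KO libraries turned on them. Trim34a and Trim34b, which lie 8.93 and 8.85 Mb before Arntl, are near copies. Their coding sequences of 1458 bases align without a gap and share 1441 bases (98.8%), and the longest identical run is 221 bases. The 60 bases of coding sequence in which they differ most hold 4 differences, shown in capitals (GENCODE vM21, bases 93 to 152 of each coding sequence).

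Trim34a (exon 2 of 8, chr7:104247823-104247882, plus strand): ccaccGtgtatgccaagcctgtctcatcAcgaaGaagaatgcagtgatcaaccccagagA
Trim34b (exon 1 of 7, chr7:104329640-104329699, plus strand): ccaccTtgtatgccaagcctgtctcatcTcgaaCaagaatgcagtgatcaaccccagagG

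Because reads were 50 bases long, many of them fit both genes. Of all 50-base windows of the Trim34a transcripts, 39.8% also occur in Trim34b, and of those of Trim34b, 56.8% occur in Trim34a. How reads are split between these genes is uncertain for that reason. Trim12a and Trim30d are more distant from each other, with 75.7% identity over the 892 aligned bases of their coding sequences (894 and 1494 bases).

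The promoter windows of these genes, from 250 bases before to 50 bases after the start site, were taken from RefSeq (GRCm38.p6) to show how these 4 members differ in this region. Capitals mark the motif GAAANNGAAA (on either strand, here as TTTCNNTTTC), a pattern of interferon response elements.

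Trim34a (chr7:104244207-104244506, plus strand): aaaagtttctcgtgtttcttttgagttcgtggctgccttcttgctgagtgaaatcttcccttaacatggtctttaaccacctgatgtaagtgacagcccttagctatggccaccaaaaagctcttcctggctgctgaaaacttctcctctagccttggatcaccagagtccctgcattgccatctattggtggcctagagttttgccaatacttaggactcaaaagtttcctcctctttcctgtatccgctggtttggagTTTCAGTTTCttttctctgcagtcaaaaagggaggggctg
Trim12a (chr7:104315446-104315745, minus strand): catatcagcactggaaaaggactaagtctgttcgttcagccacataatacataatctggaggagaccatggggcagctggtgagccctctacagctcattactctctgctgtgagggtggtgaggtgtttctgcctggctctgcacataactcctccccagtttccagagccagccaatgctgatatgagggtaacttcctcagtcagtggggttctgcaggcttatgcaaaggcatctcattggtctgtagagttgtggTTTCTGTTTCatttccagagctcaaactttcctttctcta
Trim34b (chr7:104329221-104329520, plus strand): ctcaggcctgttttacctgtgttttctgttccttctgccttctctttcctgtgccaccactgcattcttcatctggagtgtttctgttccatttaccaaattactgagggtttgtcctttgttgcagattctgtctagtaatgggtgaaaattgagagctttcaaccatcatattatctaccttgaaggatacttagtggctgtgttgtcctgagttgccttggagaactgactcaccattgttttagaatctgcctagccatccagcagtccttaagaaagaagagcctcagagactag
Trim30d (chr7:104507800-104508099, minus strand): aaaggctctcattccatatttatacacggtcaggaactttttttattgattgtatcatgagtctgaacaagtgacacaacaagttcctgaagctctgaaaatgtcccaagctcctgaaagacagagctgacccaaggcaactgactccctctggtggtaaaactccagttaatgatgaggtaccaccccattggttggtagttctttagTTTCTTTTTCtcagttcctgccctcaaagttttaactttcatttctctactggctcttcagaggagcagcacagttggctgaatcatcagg

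GAAANNGAAA occurs once in the windows of Trim34a and Trim12a (10 bases after the start site in each) and of Trim30d (position -41), and is not in that of Trim34b. It was found in 3.44% of the 32851 promoter windows of the table. The windows of Trim34a and Trim34b share 60.5% of 258 aligned bases, far less than the coding sequences. The other pairs among these windows share 54.0% to 67.8%, so this value marks no particular likeness. The coding bases shown above lie in exon 2 of Trim34a and exon 1 of Trim34b, so these windows may not match in position. The E-box CACGTG was found in 7.15% of all windows and in none of those listed for Arntl or for the members with an entry (all but Kctd14). These matches describe letters in these windows and no more.

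The levels of the 10 genes in KO and WT mice are a description, since they chose the genes. In 7 of the 10 genes, the 12 KO libraries did not overlap with the 20 WT libraries. The same holds for 0.903% of the 11963 genes tested, but nothing is read from this because the rule used the contrast. Hddc3, Art2b and Trim34b were higher in every KO library (3 genes, where 0.435% of all genes were), and Crtc3, Trim34a, Trim12a and Trim30d were lower (4 genes, where 0.468% were). In 6 of them (all but Crtc3) the KO libraries also lay outside the range of the 12 PBS libraries, which holds for 0.159% of all genes (0.0752% higher, 0.0836% lower). Both comparisons use the same KO libraries. Among the 11963 genes tested, 11 (0.092%) lay on the same side of both control groups, and 6 of these are among the 10.

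**Figure D1:**
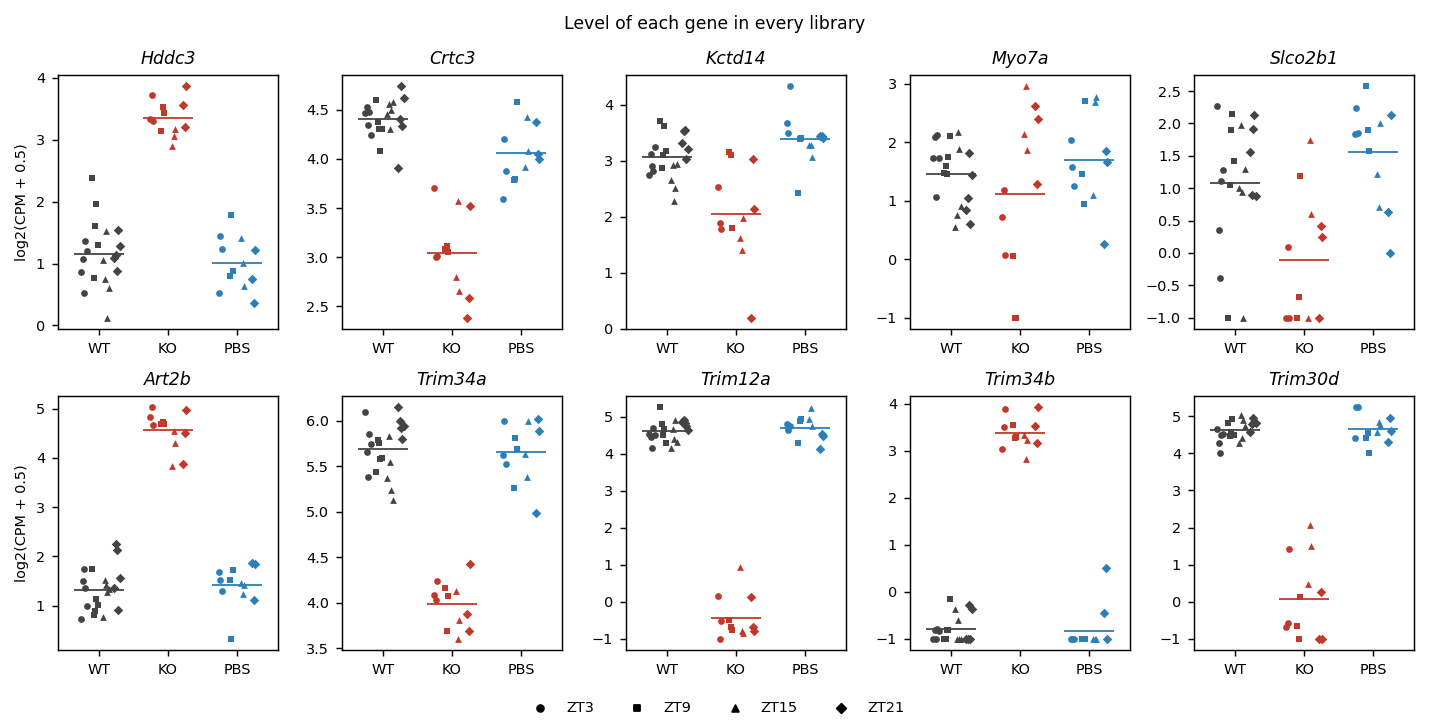
Level of each gene as log2(CPM + 0.5) in the 20 WT, 12 KO and 12 PBS libraries. Each point is 1 mouse, its shape gives the timepoint and the line the mean of the group. Hddc3, Art2b and Trim34b lie higher in KO, Trim34a, Trim12a and Trim30d lower, without overlap with either control group, and the KO points of Kctd14, Myo7a and Slco2b1 overlap with both.

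Trim12a (chr7:104299893-104315558), a gene of the TRIM5 group, was nearly missing from the KO libraries. It had 17.4 to 37.7 CPM in WT (median 24.6) and 16.9 to 37.3 CPM in PBS (median 26.4), against 0 to 1.43 CPM in KO (median 0.124). The highest KO value came from replicate 1 at ZT15, and the other 11 were at or under 0.619 CPM. The KO median corresponds to 4.81 reads, so these values lie near the limit of what the libraries can show. The difference of KO from WT, averaged over the timepoints, was -5.06 on the log2(CPM + 0.5) scale, and -4.31 or -6.38 with 1 or 0.1 added in place of 0.5.

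Trim30d (chr7:104470014-104507853), of the TRIM30 group, had 15.6 to 32.5 CPM in WT (median 24.1) and 15.6 to 37.4 CPM in PBS (median 23.5), and 0 to 3.72 CPM in KO (median 0.386), with 3 of 12 KO libraries at 0. The difference of KO from WT was -4.55. Over the alternative settings it ranged from -5.65 (with 0.1 added in place of 0.5) to -3.94. Together, Trim12a and Trim30d added up to 49.1 ± 8.33 CPM in WT (SD, n = 20), 51.6 ± 9.14 CPM in PBS (SD, n = 12) and 1.20 ± 1.20 CPM in KO (SD, n = 12). Of the 50-base windows of the transcripts, 10.5% of Trim12a and 7.49% of Trim30d occur in other genes, mostly in other TRIM genes. All nonzero values of Trim30d and 97.7% of those of Trim12a are fractions of a read, and how these arose is not stated.

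Trim34a and Trim34b (chr7:104244448-104262244 and chr7:104329471-104336617) moved in opposite directions. Trim34a had 34.4 to 70.4 CPM in WT (median 53.4), 31.1 to 64.3 in PBS (median 50.2) and 11.7 to 20.98 in KO (median 16.1), a difference of -1.70. Trim34b was at 0 in 10 of 20 WT and in 10 of 12 PBS libraries, with highest values of 0.404 and 0.925 CPM. In KO it had 6.60 to 14.7 CPM (median 9.40), or 259 to 792 reads. The difference of KO from WT was 4.17 on the log2(CPM + 0.5) scale, and this size depends on the value added before the logarithm.

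The mean sum of the pair was lower in KO than in WT, with 25.7 ± 4.90 CPM (SD, n = 12) against 52.1 ± 9.89 (SD, n = 20) and 50.9 ± 10.8 in PBS (SD, n = 12). The groups overlapped in the sum, which was 18.3 to 35.6 CPM in KO and had its lowest values at 34.4 CPM in WT and 31.3 CPM in PBS. Trim34b made up 39.2% ± 3.58 of the sum in KO (31.7% to 43.6%) and at most 1.42% in any of the 32 other libraries. In this share, no KO library fell near the range of the other groups.

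**Figure D2:**
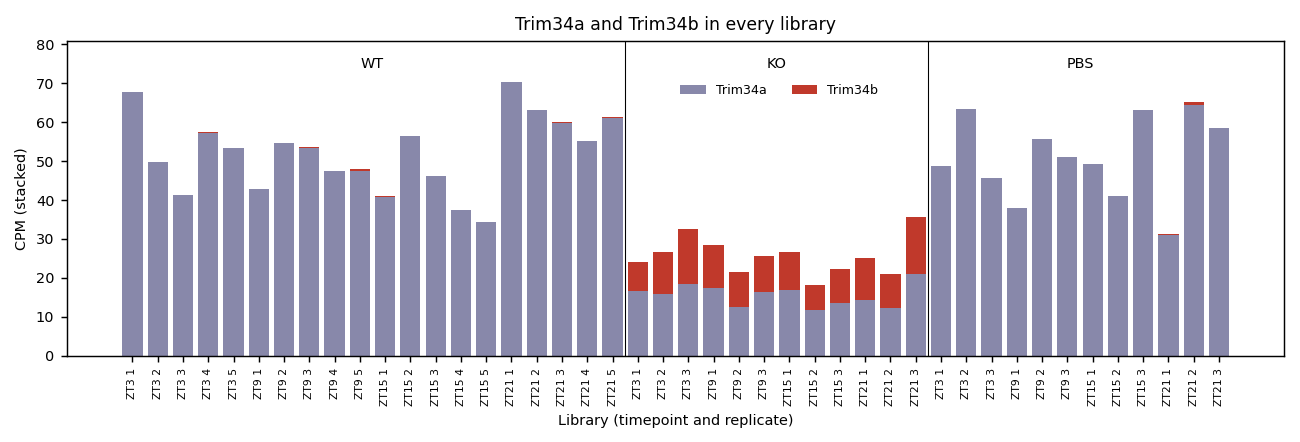
Stacked levels in CPM of Trim34a and Trim34b in each of the 44 libraries, in the order of group, timepoint and replicate. Trim34b is seen as a large part of the bar in all 12 KO libraries (31.7% to 43.6%) and is at most 1.42% in the WT and PBS libraries.

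The levels of the other TRIM genes of the cluster did not separate the groups. Of a list of 14 such genes, 12 were in the table and 10 were tested. Beside the 4 genes above, 6 were tested. None of the 6 had KO libraries outside the WT range. By limma (adjusted p under 0.05), 2 of them were higher and 2 lower in KO. Of all genes, 33.7% were called, 23.5% higher and 10.2% lower, a split that became even with median-of-ratios scaling (1748 higher, 1753 lower). The largest differences, picked after the values were seen, were those of Trim6 (-1.03) and Trim30a (-0.71), which are the neighbours of Trim34a and Trim30d among the genes tested. Trim12c, next to Trim34b, differed by 0.08. The sum of 30 interferon-stimulated genes had a median of 1866 CPM in WT, 1907 in KO and 1803 in PBS, and 3 of the 30 were higher and 3 lower in KO by limma.

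Art2b (chr7:101575729-101585591), an ADP-ribosyltransferase held at the cell surface and known from T cells, was present at low levels in the control groups and was higher in KO. It had 1.16 to 4.24 CPM in WT (median 2.03), 0.755 to 3.14 in PBS (median 2.31) and 13.9 to 32.2 in KO (median 25.2). The lowest KO library was above every other library. The difference was 3.24, and the ratio of the means was 11.3. The summed level of 18 T cell genes had a median of 851 CPM in WT (557 to 1101), 879 in KO (686 to 1554) and 1032 in PBS (819 to 1615), and no gene of this list was at 0 in a whole group. By limma (adjusted p under 0.05), 5 of the 18 were higher and 2 lower in KO than in WT, where 23.5% and 10.2% of all genes were. Within the KO libraries, Art2b and the mean of the T cell list gave no correlation that passed the test (r = 0.40, rho = -0.01, n = 12, permutation p = 0.571 and 0.978, adjusted 0.851 and 0.995), and without the 2 libraries farthest in the T cell list r was -0.83. All values of Art2b are fractions of a read, and 5.02% of its 50-base windows occur in Art2a-ps.

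Hddc3 (chr7:80343075-80346716), which encodes a hydrolase of ppGpp and NADPH, is the member farthest from Arntl. It had 0.591 to 4.69 CPM in WT (median 1.66), 0.786 to 2.95 in PBS (median 1.43) and 6.95 to 14.1 in KO (median 9.47). The KO libraries overlapped with neither control group, and the ratio of the means of KO and WT was 5.29. Its transcripts share 57.1% of their 50-base windows with Gm18310, which GENCODE places over it on the minus strand (chr7:80344082-80347993) and which is not listed in the table, and a smaller share with Gm38025 of another chromosome. In GENCODE, Hddc3 also overlaps with the end of Man2a2 on the minus strand. Whether reads were counted by strand is not given in the sources used here, and without strand those of the windows shared by Hddc3 and Gm18310 cannot be told apart. The same holds for the windows that Trim34a shares with Gm47248 (20.2%) and Slco2b1 with Gm15635 (5.38%), which GENCODE places on the opposite strand and which are not listed in the table. Of 5 other genes of nucleotide and nucleotide phosphate hydrolysis on a list, none had KO libraries outside the WT range.

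Crtc3 (chr7:80586627-80688948), a coactivator of the transcription factor CREB, had 14.5 to 26.3 CPM in WT (median 21.1), 4.71 to 12.5 in KO (median 7.68) and 11.6 to 23.5 in PBS (median 15.8). All KO libraries were below all WT libraries, and 11 of 12 were below the lowest PBS library. The difference of KO from WT was -1.37. On a list of 13 genes of the CRTC and CREB family and their kinases and partners, Crebbp was the only other gene with KO libraries outside the WT range (29.8 to 53.5 CPM against 68.9 to 111), and these overlapped with PBS (36.1 to 68.8 CPM).

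Kctd14 (chr7:97436380-97459557), which encodes a protein with a BTB domain, overlapped. It had 4.35 to 12.5 CPM in WT (median 7.90), 0.648 to 8.39 in KO (median 3.33) and 4.89 to 19.6 in PBS (median 10.1). Of 12 KO libraries, 8 were below the lowest WT library. At ZT3 and ZT15 the KO libraries were all below those of WT, and at ZT9 and ZT21 they were not. Of 20 KCTD genes tested, none had KO libraries outside the WT range.

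Slco2b1 (chr7:99657804-99711340), a transporter of organic anions, was low in all groups, with 0 to 4.30 CPM in WT (median 1.79), 0 to 2.86 in KO (median 0.346) and 0.50 to 5.46 in PBS (median 3.10). Of 12 KO libraries, 5 were at 0, and 2 of 20 WT libraries were too, and all 3 groups overlapped. The part of the monocytes and macrophages in this was not tested. Among 5 organic anion transporters tested, Slco3a1 was the only one with KO libraries above the WT range (9.33 to 25.9 CPM against 2.99 to 8.04), with PBS at 7.86 to 33.5. Slco3a1 also lies on chromosome 7, 38.9 Mb before Arntl and outside the stretch.

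Myo7a (chr7:98051054-98119522), an unconventional myosin known from the hair cells of the ear, did not stand apart on average, against its place among the genes set apart. It had 0.969 to 4.01 CPM in WT (median 2.39), 0 to 7.28 in KO (median 1.86) and 0.703 to 6.38 in PBS (median 2.59), and the difference of KO from WT was -0.35. It was spread over time in KO. The KO libraries had 1.16, 1.78 and 0.556 CPM at ZT3, and 0.534, 0 and 0 CPM at ZT9. They had 3.89, 7.28 and 3.13 CPM at ZT15, and 5.62, 1.94 and 4.77 CPM at ZT21. All 3 KO libraries of ZT9 were below the 5 WT libraries of that timepoint (2.24 to 3.82 CPM), and those of ZT15 and ZT21 overlapped with WT. Among 19 unconventional myosins tested, none had KO libraries outside the WT range.

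**Figure D3:**
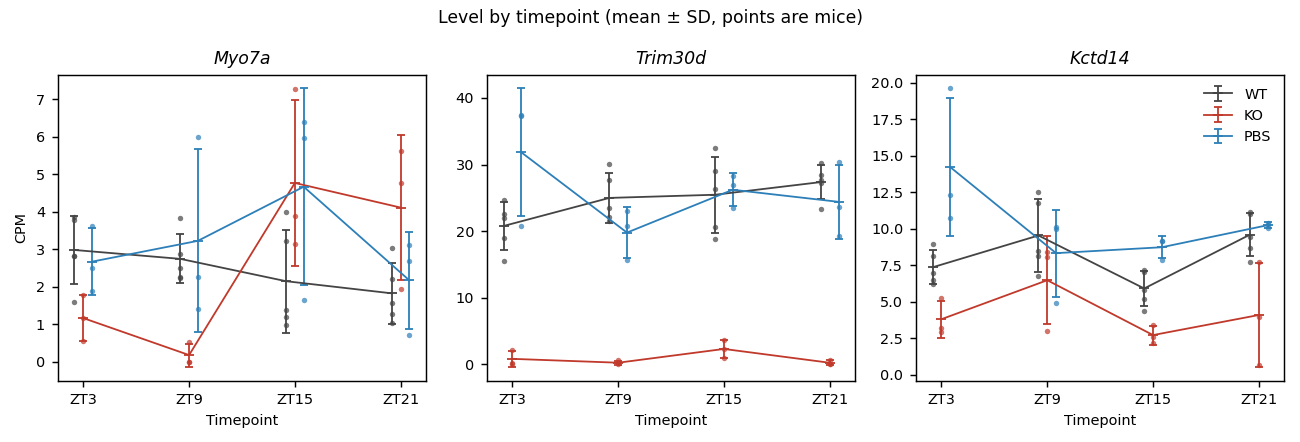
Levels in CPM of Myo7a, Trim30d and Kctd14 at ZT3, ZT9, ZT15 and ZT21. Lines join the means, bars are SD and points are mice (5 WT, 3 KO and 3 PBS per timepoint). Myo7a in KO is lowest at ZT9 (0 to 0.534 CPM) and highest at ZT15 (3.13 to 7.28 CPM), while Trim30d in KO stays at or under 3.72 CPM at all timepoints.

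Along chromosome 7, the difference between KO and WT was located by the distance from Arntl. Over the 28 Mb from 80 Mb on, 152 genes were tested. Leaving out the 10 members, 4 of 142 (2.82%) had KO libraries outside the WT range, against 5 of 786 (0.636%) on the rest of the chromosome and 92 of 11025 (0.834%) on the others. Those 5 on the rest of the chromosome were Mrgpra6 (-4.43), Srcap (-1.46), Fam169b (-1.41), Slco3a1 (1.26) and Sympk (-0.69). Outside the range of WT and of PBS alike were 1 of these 142, 0 of 786 and 4 of 11025 genes. Among the other chromosomes, chromosome 17 had the highest share outside the WT range (12 of 611, 1.96%) and held 2 of these 4 genes. With the members, all of chromosome 7 had 1.71%. These shares are a description, since the stretch was chosen with the values known. At the far edge of the stretch, Zfp710 just inside differed by 0.24 and Arpin just outside by -0.26, and at the near edge Ppfibp2 just inside by 1.90 and Nlrp10 just outside by 0.17. Of these 4 edge genes, Ppfibp2 alone had KO libraries outside the range of WT.

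The 4 genes were Ppfibp2, Rab38, Spcs2 and Prcp. Ppfibp2, a liprin of cell adhesion, had 13.7 to 37.1 CPM in WT, 18.0 to 30.2 in PBS and 64.5 to 160 in KO, a difference of 1.90, and was the gene apart from both control groups. It lies nearer to Arntl than any member. Rab38, a small GTPase of melanosome and lysosome traffic, differed by -0.93, Spcs2, a subunit of the signal peptidase, by 0.54 and Prcp, a lysosomal carboxypeptidase, by -0.39. The KO libraries of these 3 overlapped with PBS. Nearer to Arntl, no gene between 110 and 120 Mb, where 43 were tested and Arntl itself lies, had KO libraries outside the WT range. The genes set apart lay among others that were not. Unc45a and Man2a2, on either side of Hddc3, differed by 0.09 and -0.19 and overlapped, as did the neighbours of all other members that were not members themselves.

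**Figure D4:**
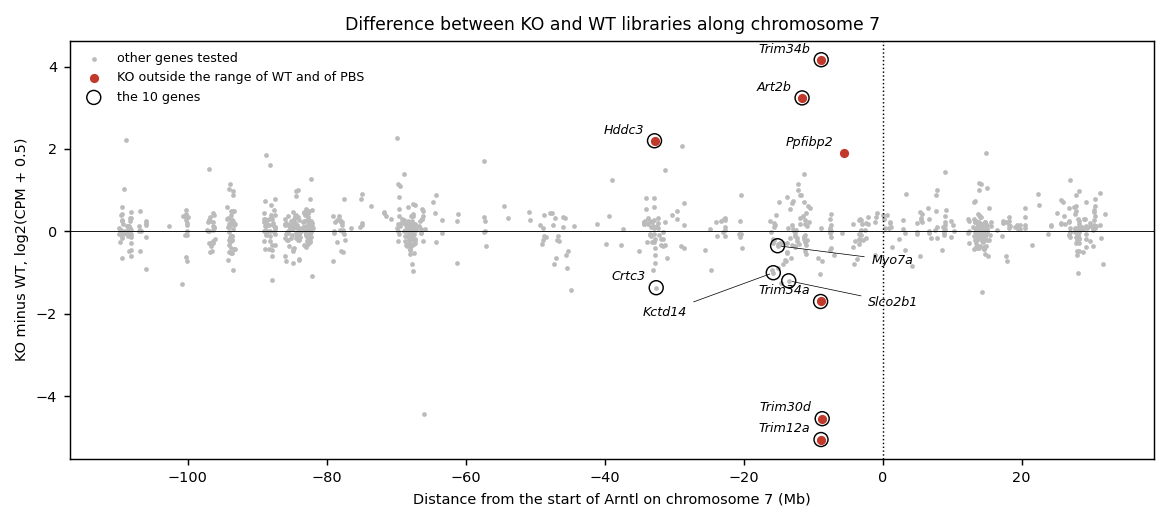
Difference of KO from WT on the log2(CPM + 0.5) scale for the 938 genes of chromosome 7 that were tested, against their distance in Mb from the start of Arntl (dotted line at 0). Filled points are genes whose 12 KO libraries lie outside the range of the WT and of the PBS libraries, and circles are the 10 genes. The 7 filled points run from Hddc3 to Ppfibp2, before Arntl.

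The response to tumour cells was tested between WT and PBS. The rule did not use this contrast, but the WT values entered the choice of the genes. Trim34b, with no WT or PBS library at 1 CPM, could not show a response and is left out. Of the other 9 genes, 2 passed (limma, adjusted p under 0.05), where 37.9% of all genes did. They were 1 of 9 higher with tumour cells (13.3% of all genes) and 1 of 9 lower (24.6%). Crtc3 was higher in WT with tumour cells than in sham mice, with 20.9 ± 2.74 CPM (SD, n = 20) against 16.5 ± 3.57 (SD, n = 12). The difference was 0.35 on the log2 scale (SE 0.09, limma adjusted p = 0.00342). Kctd14 was lower, with 8.10 ± 2.21 CPM (SD, n = 20) against 10.4 ± 3.42 (SD, n = 12), a difference of -0.33 (SE 0.11, limma adjusted p = 0.0206). The WT and PBS libraries of both genes overlapped. In none of the 9 genes did these groups separate, while 2.15% of all genes did so. The call of Kctd14 was lost in 4 of 40 alternatives, among them without replicate 3 of PBS at ZT3 (19.6 CPM, the highest; limma adjusted p = 0.0571) or at ZT9 (limma adjusted p = 0.05004). Median-of-ratios scaling was another (limma adjusted p = 0.05996), whereas Crtc3 passed in all alternatives (limma adjusted p from 0.000326 to 0.0313).

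The other 7 genes had differences of -0.47 to 0.15 and limma adjusted p of at least 0.267. Those of the TRIM genes were -0.08 for Trim12a (SE 0.09), -0.03 for Trim30d (SE 0.10) and 0.04 for Trim34a (SE 0.10). Many markers of other cells and of DC subsets were also lower in WT than in PBS (limma adjusted p under 0.05, 24.6% of all genes). Of other cells, these were 9 of 10 monocyte and macrophage, 8 of 8 NK cell, 13 of 18 T cell, 4 of 6 B cell and 2 of 5 neutrophil genes. Of DC subsets, they were 5 of 5 plasmacytoid DC, 6 of 7 cDC1, 4 of 6 cDC2 and 1 of 2 Langerhans cell genes. Higher in WT were 2 T cell genes and 1 cDC1 gene (13.3% of all genes). Of 12 mature DC genes, 2 were higher and 3 lower. Whether these differences bear on Crtc3 and Kctd14 was not tested.

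**Figure D5:**
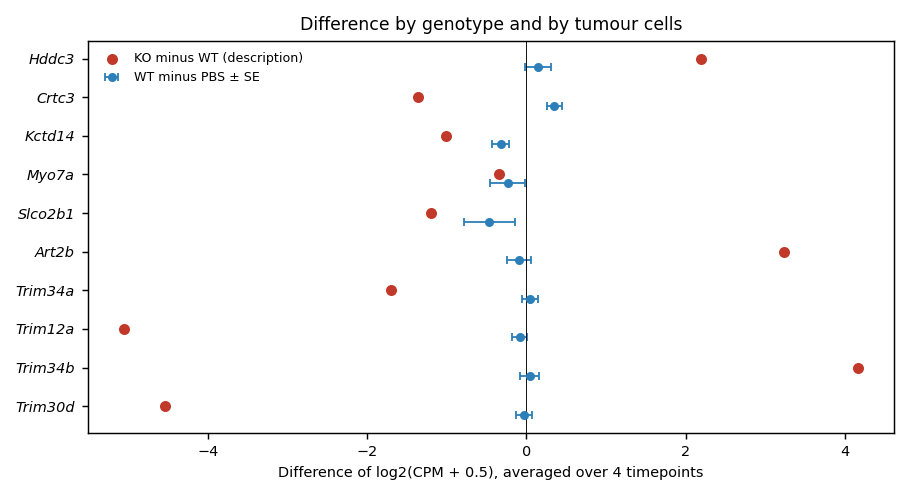
Differences of log2(CPM + 0.5), averaged over the 4 timepoints, between KO and WT (red, without error because the genes were chosen on it) and between WT and PBS (blue, with the SE). The blue points lie between -0.47 and 0.35, the red ones between -5.06 and 4.17.

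Time of day was tested next. In the interaction of genotype with time, which compares the course over ZT3 to ZT21 in KO and WT, Trim34b (near 0 in WT) and Trim12a (near 0 in KO) had no course to compare and are left out. None of the 7 other genes beside Myo7a passed (limma F test, adjusted p under 0.05), and 0.0502% of all genes did. At an unadjusted p under 0.05 Trim30d was the only one of the 7, where 18.3% of all genes were (limma adjusted p = 0.110). Its KO values were 0.897, 3.72 and 2.31 CPM at ZT15, 0.122, 0.177 and 2.17 CPM at ZT3, and at most 0.708 CPM at ZT9 and ZT21, so that ZT3 and ZT15 overlapped. That the course of Myo7a differed was known when the genes were chosen, and its values above are given as a description.

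In the interaction of tumour cells with time, none of the 9 genes other than Trim34b passed, and 0% of all genes did. At an unadjusted p under 0.05 there were 3 of the 9 (11.9% of all genes). These were Kctd14 (limma adjusted p = 0.242), Trim12a (limma adjusted p = 0.273) and Trim30d (limma adjusted p = 0.309). In Kctd14 the largest gap between the groups was at ZT3, with a mean of 14.2 CPM in PBS and 7.36 in WT.

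Rhythms could not be tested where a gene was near 0, as Trim34b was in WT and PBS (no library at 1 CPM) and Trim12a in KO (1 of 12 libraries). Levels were also low for Trim30d and Slco2b1 in KO, with 3 of 12 libraries each at 1 CPM or more. Leaving out Trim34b, which was tested only because of its level in KO, and Trim12a in KO, no member was rhythmic by a cosinor with a period of 24 h (limma, adjusted p under 0.05), a test passed by 0.0251% of all genes in WT, and by 0% in KO and in PBS. At an unadjusted p under 0.05, there was 1 member in WT (9.2% of all genes), none in PBS (7.38%) and, beside Myo7a, none in KO (10.5%). The gene in WT was Trim34a, with an amplitude of 0.23 on the log2 scale and a peak at 23.96 h (limma adjusted p = 0.444). Its means were 53.9 CPM at ZT3, 49.2 at ZT9, 43.0 at ZT15 and 61.9 at ZT21. Myo7a in KO, where its course was known when the genes were chosen, had an amplitude of 1.60 and a peak at 18.9 h as a description (limma adjusted p = 0.232).

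Whether the members varied together between mice was examined within each group, after subtraction of the timepoint means, in 12 relations. None passed after adjustment. Beside the pair of Trim34a and Trim34b, the lowest p was that of Trim12a with Trim30d in WT (r = 0.59, permutation p = 0.0210, adjusted 0.126, rho = 0.56, permutation p = 0.0333, adjusted 0.200, n = 20), with r of 0.60 without the 2 farthest. In KO, where both were low, r of that pair was -0.48 (rho = -0.50, permutation p = 0.235 and 0.205, n = 12). Trim34a and the mean of the interferon-stimulated genes gave r of 0.13 in WT, -0.44 in KO and 0.66 in PBS, with rho of 0.09, -0.48 and 0.57 (permutation adjusted p of at least 0.489). Trim34a and Trim34b in KO had r of 0.75 and rho of 0.74 (n = 12), and r was 0.63 without the 2 libraries farthest in Trim34a. This is a description, since Trim34b was tested only because of its level in KO and 56.8% of its windows occur in Trim34a. The part of shared reads in it was not tested.

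The genes most like each member, by Pearson r over the deviations of all 44 libraries from the means of their group and timepoint, lay on other chromosomes in all cases. They were Psme1 and Ubxn1 for Kctd14 (r = 0.76 and 0.75), Plekho2 and Dnmt3b for Myo7a (0.75 and 0.67), Cd53 and Rac2 for Crtc3 (0.74 and 0.71) and Parp8 and Tug1 for Trim34a (0.69 and 0.66). For Trim30d they were Zfp354c and Stard13 (0.67 and 0.60), for Art2b B3galt4 and Ung (0.66 and 0.62), for Slco2b1 Usp2 and Ccdc84 (0.65 and 0.64) and for Hddc3 Disc1 and Tppp (0.65 and 0.59). For Trim12a they were Ktn1 and Bbs9 (0.63 and 0.62) and for Trim34b Gpalpp1 and Hdac6 (0.61 and 0.57). These are the highest values among all genes tested and are given without a test. Trim34b had few or no reads in most WT and PBS libraries, as had Trim12a, Trim30d and Slco2b1 in most KO libraries. Some of the genes named were low too, with means over the 44 libraries of 0.53 CPM (Zfp354c), 0.64 (Tppp), 0.70 (Ung) and 0.97 (Usp2). The others had means of at least 1.13 CPM. How far the scatter of few reads enters these r values was not tested.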

How the data were processed

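RNA-seq was performed on sorted CD11c+MHCIIhigh cells of 44 mice, 1 library each. Reads of 50 bases were aligned by the authors with STAR to mm10, counted on genes with HTSeq (version 0.9.1) and scaled by library size with edgeR. They deposited 1 table of CPM values for 14699 genes, which are linear. Of these genes, 2736 did not reach 1 CPM in 5 libraries, so that filter had not been applied, and whether others were is not given in the sources used here. In each library, 86.9% to 88.7% of nonzero values come to whole reads (within 0.002 reads), from which depth was obtained. The others are fractions of a read, so no test for counts was run.

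The 11963 genes that reached 1 CPM in 5 or more libraries were tested as log2(CPM + 0.5) with limma 3.58.1 in R 4.3.3, with Benjamini–Hochberg adjustment over all of them. The models were the difference between groups averaged over timepoints, the interactions with time, and a cosinor of 24 h within each group. A gene was called apart when no library of one group lay within the range of the other. Correlations used permutation within timepoints (100000 resamples, two-sided) with Python 3.11.15 (pandas 2.3.3, numpy 2.4.6), and sequences were aligned with Biopython 1.88. Promoters and coordinates are those of RefSeq (GRCm38.p6, the assembly of mm10), transcripts those of GENCODE vM21. Groups were taken from the sample labels. No pair of libraries held identical values, and the correlation between replicates was 0.924 to 0.984. The lowest mean correlations of a library were those of KO at ZT21, with 0.933 in replicate 1 and 0.943 in replicate 3. That replicate 1 also had the fewest genes above 0 (11461). Of the KO libraries, it held the highest Arntl (38.0 CPM) and the lowest Kctd14 (0.648 CPM). Each replicate is 1 mouse.

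In simulated data with 200 of 11963 genes changed, 92% were recovered for KO against WT and 86.5% for WT against PBS, with a change of 1 on the log2 scale. For the interactions of genotype and of treatment with time, 82.5% and 83.5% were recovered, with a change of 2 at ZT15 and ZT21. For the cosinor in WT, KO and PBS, 90%, 79% and 74.5% were recovered, with an amplitude of 1. Smaller changes were not simulated, so these rates do not apply to them. Alternatives were median-of-ratios scaling, a value of 1 or 0.1 added in place of 0.5, no filter or a mean of at least 1 CPM, array weights, an intensity trend, the replicate number as a block, any difference among timepoints in place of the cosinor, and leaving out each library. The members and the gene lists were chosen with earlier results of these data known. Named are the members, Arntl, the other genes of the stretch that were apart in KO (up to 6), the 2 genes most like each member, and genes of the lists that were apart. Others are named only where stated.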

Additional observations from a re-analysis of the deposited data

Results flagged for a closer look

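In 2 of the 40 sets of 5 WT libraries (10 genes at 4 timepoints), 1 library lay far from the other 4. Chance gives about 1 such set in 20, but this rate does not hold for Trim34b, whose WT values lie at or near 0. Nothing is therefore read from the count of 2. Art2b in WT at ZT9 was 2.84 CPM in replicate 1 and 1.26 to 1.71 CPM in the others, still below all KO libraries. Trim34b in WT at ZT9 was 0.404 CPM in replicate 5 and at most 0.0702 CPM in the others (10.3 reads in replicate 5). That set is a description only, because Trim34b passed the filter through KO and no WT library reached 1 CPM.

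The course of Myo7a over time in KO and WT had a limma F test adjusted p of 0.0115. This is no independent test, because the course was known when the gene was chosen, and nothing is read from it.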

How the results depend on the processing

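Of the differences and tests of single members, 2300 of 2310 alternative values were counted as unchanged. For a test, this means that it stayed on the same side of the threshold. For the difference of KO from WT, it means a move by less than the spread between replicates. A change of sign without a call was counted as unchanged too. It occurred in WT minus PBS for Trim34a, Trim34b and Trim30d, all near 0. The number of members apart between KO and WT was 7 in all alternatives, and 6 or 7 between KO and PBS when 1 library was left out. Of the members tested between WT and PBS, 1 passed in place of 2 with median-of-ratios scaling and 1 with the replicate block, and 1 to 2 when 1 library was left out. For the course over time in KO and WT, 0 passed in place of 1 (Myo7a) with the replicate block. Under the block, Kctd14 in WT against PBS had an adjusted p of 0.0888. Replicate numbers are shared between the groups, but the libraries of 1 number did not deviate together (r from -0.10 to 0.17), so they were not taken as pairs. The counts of members in the other tests were 0 throughout.

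With a pseudocount of 1 or 0.1 in place of 0.5, the difference of KO from WT was -4.31 or -6.38 for Trim12a and 3.33 or 5.97 for Trim34b. For Trim30d it ranged from -5.65 (with 0.1) to -3.94 over the alternative settings. Over all genes, the genotype-by-time calls were 6, but 12 and 11 with the pseudocounts, 11 with the mean filter, 1071 with array weights, 78 with the intensity trend and 0 with the block. The rhythmic genes in WT were 3, but 147, 11 and 1 with the latter alternatives, and 632 by any difference among timepoints. The genes that differed between KO and WT were 4031 (69.8% higher), 2600 with the block, and 3501 (49.9% higher) with median-of-ratios scaling. Those of WT against PBS were 35.1% higher and 46.1% with that scaling. The treatment-by-time calls were 0, but 1 with that scaling and 5 without a filter, and the rhythmic genes in KO 0, but 1 with a pseudocount of 1 and 5 with the intensity trend. With 1 library left out, these counts ranged from 4 to 311 (genotype by time), 0 to 38 (treatment by time) and 1 to 43 (rhythmic in WT). Low levels rest on few reads, with medians of 4.81 for Trim12a and 15.2 for Trim30d in KO, and of 0.814 in WT and 0 in PBS for Trim34b, although single libraries reached 66.0, 155, 10.3 and 38.8 reads. Reads were not examined for DNA variants here, and 3 mice per timepoint limit what the tests of time can show.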
